A study of Mus musculus with 3 samples.

Results

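Among the peripheral blood mononuclear cells of 3 mouse libraries, 1514 cells were CD8 T cells that carried Ccl5, a chemokine gene that memory CD8 T cells keep switched on, and no Gzmk, the granzyme K gene. They were 1514 of 4119 CD8 T cells, of 28333 barcodes that passed the filters and of 44212 barcodes in all. Cells were chosen on their unique molecular identifiers (UMIs, which count captured transcripts): at least 2 over Cd3d, Cd3e and Cd3g, at least 2 over Cd8a and Cd8b1, none of Cd4, at most 1 over Cd79a and Cd79b, at least 2 of Ccl5 and none of Gzmk. A barcode passed with at least 200 genes, at most 7.5% mitochondrial UMIs and less than 20% haemoglobin UMIs. The cells are called Ccl5+Gzmk- cells here, and the levels of the genes that chose them are given as a description.

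The libraries came from C57BL/6 female mice, with 1 library a group, on a droplet platform that reads transcript ends. Young mice were 8 weeks old and aged mice 16 months old. Aged-GA mice were also 16 months old and had received glycyrrhizic acid (GA), a saponin of liquorice root, for 1 month, by tail vein every other day. For young and aged mice the labels name no treatment, while the study's methods give saline to a control group without saying which ages it held. The study describes several mice a group, but the labels tie no barcode to a mouse. Because a group is 1 library, no difference between ages or treatments has replicate error or a test: intervals are 95% exact intervals that cover counting error only, and cannot tell a group from its library. The young, aged and aged-GA libraries held 58894294, 82260961 and 98155671 UMIs in 10842, 16038 and 17332 barcodes, and no barcode of a Ccl5+Gzmk- cell was shared between libraries.

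Memory CD8 T cells are long-lived cells that have met antigen, or that took on a memory state without infection under homeostatic cytokines. They carry CD44 and CD122, the interleukin 2 receptor beta chain encoded by Il2rb, keep transcripts of Ccl5 and granzymes ready, and become more frequent with age as the thymus exports fewer naive cells. Central memory cells hold on to the lymph node homing receptor CCR7, whereas effector memory cells lose it and express granzymes, Cx3cr1, Klrg1 and the transcription factor gene Zeb2. Granzyme K marks another memory population that accumulates in old mice, often beside exhaustion genes.

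The label's marker genes were checked first, as levels in CPM (counts per 1000000, here the UMIs of a gene against all UMIs of the same cells). Of the genes used to choose the cells, Cd8b1 had levels of 640, 731 and 647 CPM in young, aged and aged-GA mice, and Cd8a 216, 350 and 294 CPM. Gzmm, which encodes granzyme M and was not used in the choice, had 57.6, 95.1 and 165 CPM in Ccl5+Gzmk- cells, against 1.35, 4.06 and 2.84 CPM in CD8 T cells without a UMI of Ccl5 or Gzmk (Ccl5-negative cells). Ly6c2, a surface protein gene of memory CD8 T cells, had 656, 903 and 949 CPM against 183, 290 and 191 CPM. Both markers were thus present in each library and higher than in Ccl5-negative cells, although Gzmm was seen in few cells. With each cell thinned to 2000 UMIs, 11.4%, 10.9% and 22.7% of the cells had a UMI of Gzmm and 68.1%, 69.5% and 73.9% had one of Ly6c2.

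Ccl5+Gzmk- cells took a larger share of CD8 T cells in both libraries of older mice than in the young one. They were 274 of 1767 CD8 T cells in young mice, 15.5% (13.8 to 17.3%), 370 of 793 in aged mice, 46.7% (43.1 to 50.2%), and 870 of 1559 after GA, 55.8% (53.3 to 58.3%). The intervals of the 3 libraries did not overlap. Ccl5-negative cells made up 76.7%, 30.3% and 23.6%, while cells with Ccl5 and at least 1 UMI of Gzmk (Gzmk-positive cells) were 0.905%, 13.4% and 9.43%. Among all barcodes that passed the filters, Ccl5+Gzmk- cells were 3.28%, 4.05% and 8.02%, so that the aged library stood close to the young one on that scale. CD8 T cells as a whole were fewer in the aged library, 793 of 9136 barcodes, against 1767 of 8354 in young mice and 1559 of 10843 in aged-GA mice.

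**Figure D1:**
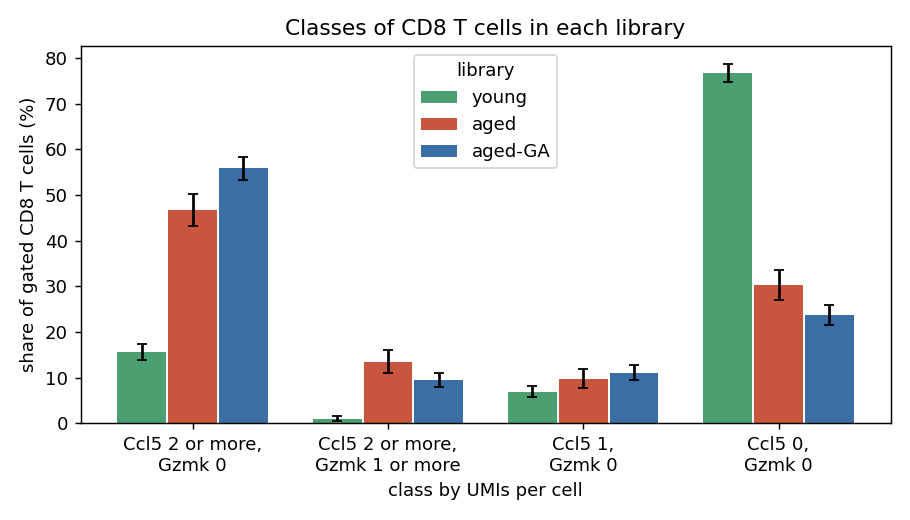
Share of CD8 T cells (%, y axis) in each class, cut by UMIs of Ccl5 and Gzmk per cell (x axis), in the young, aged and aged-GA libraries; bars start at 0 and error bars are exact binomial 95% intervals, which cover counting error only. The Ccl5+Gzmk- class holds 15.5%, 46.7% and 55.8% and the Ccl5-negative class 76.7%, 30.3% and 23.6% in young, aged and aged-GA mice.

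The amount of Ccl5 in a cell also differed. A Ccl5+Gzmk- cell held a median of 14 UMIs of Ccl5 in the young, 73 in the aged and 80 in the aged-GA library, and the highest cells held 295, 488 and 436. Since Ccl5 chose the cells, this is a description of who was chosen. Cells with 15 or more UMIs of Ccl5, a limit set after the values were seen, were 134 of 274 in young mice (48.9%), 332 of 370 in aged mice (89.7%) and 768 of 870 in aged-GA mice (88.3%). Just inside the threshold, 35, 19 and 48 cells had 2 UMIs of Ccl5, and just outside it, 121, 76 and 172 cells had 1 and no Gzmk. Of the Gzmk-positive cells, 9 of 16, 47 of 106 and 69 of 147 had a single UMI of Gzmk.

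UMIs of Ccl5 were also read in other cells. B cells, with at least 4 UMIs over Cd79a and Cd79b, had 2 or more UMIs of Ccl5 in 0.838%, 2.77% and 6.35% of cells in young, aged and aged-GA mice, at median depths of 3391, 3088.5 and 3750 UMIs. The median depths of Ccl5+Gzmk- cells were 7755, 6342.5 and 8146.5 UMIs. Those with 2 to 14 UMIs of Ccl5 were 140, 38 and 102 cells, and the label's markers were weaker in them. Their level of Gzmm was 21.8, 3.93 and 12.7 CPM, against 94.6, 107 and 184 CPM in those with 15 or more, and their level of Ly6c2 was 613, 535 and 444 CPM against 701, 950 and 1012 CPM. Igfbp4, a gene of naive T cells, went the other way, with 85.2, 130 and 199 CPM in cells with 2 to 14 UMIs of Ccl5 and 36.5, 9.41 and 8.65 CPM in those with more. In aged cells with little Ccl5 the Gzmm level came from a single UMI and was no higher than in Ccl5-negative cells (4.06 CPM). The part of free RNA or doublets in these UMIs was not tested. Because young mice held a larger share of such cells, the gene counts and lists set against young mice below were also computed among cells with 15 or more UMIs.

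**Figure D2:**
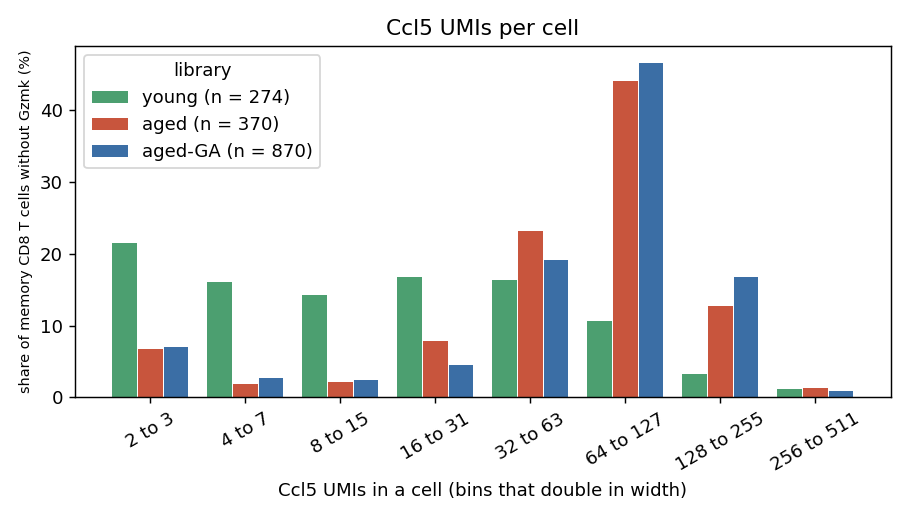
Share of Ccl5+Gzmk- cells (%, y axis) by their UMIs of Ccl5 (x axis, bins that double in width) in the young (n = 274), aged (n = 370) and aged-GA (n = 870) libraries. Young cells are spread over the low bins, with 21.5% at 2 to 3 UMIs, whereas aged and aged-GA cells gather between 32 and 127 UMIs and only 6.76% and 7.01% have 2 to 3.

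Which other genes set Ccl5+Gzmk- cells apart from Ccl5-negative cells was asked on UMIs summed per library and class, with the library as a block (edgeR's quasi-likelihood test, n = 3 libraries). The genes that chose the cells were left out. Since the libraries differ in age and treatment, the test asks for a difference that they share, and since both classes were cut by Ccl5 on the same cells, it describes that cut. Of 8664 genes, 618 were higher (7.13%) and 493 lower (5.69%) at an adjusted p under 0.05, together 12.8%. Cytotoxic genes were higher in 11 of 13 and memory genes in 13 of 18, and naive T cell genes lower in 15 of 17. Their median log2 fold changes were 2.07, 1.86 and -0.85, and the median of all genes was -0.01. Of 22 killer lectin-like receptor genes listed, 13 had enough UMIs to be tested and were higher. Genes with few UMIs in Ccl5-negative cells had enough only through the Ccl5+Gzmk- cells. Among them were nearly all of these receptor genes and Gzma, Gzmm, Gzmb, Fasl, Tbx21, Xcl1, Ifng, Il18rap and Cxcr3. Their calls and the list counts that hold them are thus a description.

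The memory genes included the receptors by which these cells are defined at the protein level. Il2rb had a level of 342, 444 and 421 CPM in young, aged and aged-GA Ccl5+Gzmk- cells, against 102, 134 and 89.8 CPM in Ccl5-negative cells. It was higher in 3 of 3 libraries, by a log2 fold change of 1.84 (SE 0.10, edgeR adjusted p = 3.5e-08). Cd44, the adhesion receptor gene of antigen-experienced cells, had 65.9, 117 and 121 CPM against 11.7, 26.4 and 26.8 CPM (log2 fold change 2.23, SE 0.12, edgeR adjusted p = 2.9e-08). The levels of both receptors did not overlap between the classes.

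Eomes, a T-box transcription factor gene of memory CD8 T cells, had 38.7, 99.9 and 90.1 CPM against 6.14, 19.0 and 11.4 CPM, a log2 fold change of 2.63 (SE 0.14, edgeR adjusted p = 3.5e-08). Its relative Tbx21, which encodes T-bet, had only 19, 59 and 116 UMIs, against 6, 1 and 2 in Ccl5-negative cells. Il18r1, a part of the interleukin 18 receptor, rose by 2.03 (SE 0.12, edgeR adjusted p = 5.6e-08). Il18rap, its other part, and the chemokine receptor gene Cxcr3 were higher by 3.43 (SE 0.17) and 3.05 (SE 0.17). Both Il18rap and Cxcr3 had enough UMIs to be tested only through Ccl5+Gzmk- cells, so their rises are a description. By contrast Bcl2, a survival gene, and Il7r, the interleukin 7 receptor gene, were near their levels in Ccl5-negative cells. The log2 fold change was 0.16 for Bcl2 (SE 0.08, edgeR adjusted p = 0.23) and -0.04 for Il7r (SE 0.07, edgeR adjusted p = 0.80).

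Itga4, the CD49d integrin gene, is known as low in memory cells formed without infection and high in those formed by antigen. Its level in Ccl5+Gzmk- cells was 131, 176 and 86.7 CPM in the 3 libraries, in the same order. In Ccl5-negative cells it was 165, 201 and 213 CPM, and in Gzmk-positive cells 409, 774 and 672 CPM. Ccl5+Gzmk- cells were the lowest class in each library. The distance to Gzmk-positive cells was large (log2 fold change -2.12, SE 0.15, edgeR adjusted p = 1.2e-10). The distance to Ccl5-negative cells was smaller (-0.69, SE 0.16, edgeR adjusted p = 0.010), and that call was not made by DESeq2 (adjusted p = 0.43) or on thinned cells (edgeR adjusted p = 0.12).

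Killer lectin-like receptors are surface receptors of natural killer cells and memory CD8 T cells. All 22 genes listed lie on chromosome 6, within chr6:122270596-130386874 (GRCm38), a stretch of 8116279 bases that holds the natural killer gene complex. Klrk1, which encodes the activating receptor NKG2D (chr6:129610323-129623864, minus strand), had 59.4, 99.0 and 122 CPM in Ccl5+Gzmk- cells against 0.491, 2.03 and 2.84 CPM in Ccl5-negative cells. Klrc1, which encodes NKG2A (chr6:129666015-129678973, minus strand), had 45.6, 81.0 and 99.6 CPM against 0, 1.35 and 0.406 CPM. Both receptor genes were close to 0 in the Ccl5-negative cells of each library.

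Klrd1, which encodes CD94, the partner of NKG2A (chr6:129591782-129598775, plus strand), was the exception in size. Its level was 316, 336 and 286 CPM against 238, 192 and 212 CPM, a log2 fold change of 0.48 (SE 0.08, edgeR adjusted p = 0.0017). Klre1, Klrc2 and the Ly49 family genes Klra7, Klra3 and Klra1 had at most 11 UMIs in the Ccl5-negative cells of any library, too few for a firm fold. Klrg1, a receptor gene of effector cells, had only 23, 32 and 34 UMIs in Ccl5+Gzmk- cells and none in Ccl5-negative cells. The 10 genes with the largest rise were receptor genes of this list, Gzma and Lrrk1, a leucine-rich repeat kinase gene. Near-identical Klra genes can share reads, so their split among members is uncertain.

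Cytotoxic genes rose as well. In the same test natural killer cell markers, some of which are in the lists above, were higher in 7 of 7, myeloid markers in 5 of 11 and gamma-delta T cell markers in 2 of 4, and their part in these rises was not tested. Nkg7, a granule membrane protein gene, had 826, 1612 and 1212 CPM in Ccl5+Gzmk- cells against 408, 614 and 428 CPM in Ccl5-negative cells (log2 fold change 1.24, SE 0.09, edgeR adjusted p = 4.4e-07). Prf1, the perforin gene, had 57.1, 80.1 and 77.4 CPM against 19.3, 14.2 and 10.6 CPM (2.07, SE 0.19, edgeR adjusted p = 3.8e-06). Gzmm, whose levels stand above, differed by 5.32 (SE 0.18). Gzma, Gzmb and the death ligand gene Fasl were higher by 5.88 (SE 0.27), 4.68 (SE 0.21) and 4.26 (SE 0.26). The secreted ligand Xcl1 had 58, 81 and 353 UMIs against 4, 6 and 1, and Ifng 30, 55 and 131 UMIs against 2 in each library.

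Gzmm and Nkg7 are the cytotoxic genes whose promoter window in RefSeq (GRCm38.p6, from 250 bases before the start to 50 after it) holds the letters GGTGTGA, the core of the element that T-box factors such as Eomes and T-bet recognise, on either strand (reverse TCACACC). Of the genes with a window, these were 2 of 13 cytotoxic genes, and 1 of 14 memory genes (Itga4) and 1 of 19 killer lectin-like receptor genes (Klra1) held the letters too. They occur in 1307 of all 32851 windows (3.98%). The 250 bases before each start are shown because these genes rose with Eomes and Tbx21, or, for Itga4, did not, with the letters in capitals. They begin 189 bases before the start in Gzmm (chr10:79693576-79693825, plus strand), 13 in Nkg7 (chr7:43436888-43437137, plus strand) and 165 in Itga4 (chr2:79255176-79255425, plus strand). A match is a description of the letters and not of binding.
Gzmm: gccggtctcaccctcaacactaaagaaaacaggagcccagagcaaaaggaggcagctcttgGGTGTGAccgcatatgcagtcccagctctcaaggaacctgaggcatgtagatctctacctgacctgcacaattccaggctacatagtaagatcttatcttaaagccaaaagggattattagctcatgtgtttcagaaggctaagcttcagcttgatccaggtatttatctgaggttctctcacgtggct
Nkg7: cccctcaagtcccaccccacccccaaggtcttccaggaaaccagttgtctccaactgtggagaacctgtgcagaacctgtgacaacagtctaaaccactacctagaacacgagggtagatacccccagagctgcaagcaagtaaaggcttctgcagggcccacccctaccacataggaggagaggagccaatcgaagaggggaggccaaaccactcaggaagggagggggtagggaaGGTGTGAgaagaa
Itga4: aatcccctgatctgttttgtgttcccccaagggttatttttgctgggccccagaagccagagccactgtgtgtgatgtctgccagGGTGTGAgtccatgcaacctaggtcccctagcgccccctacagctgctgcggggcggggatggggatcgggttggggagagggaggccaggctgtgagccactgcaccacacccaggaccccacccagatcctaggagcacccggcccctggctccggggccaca

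The naive genes fell but stayed well above zero. Ccr7 had 373, 299 and 364 CPM in Ccl5+Gzmk- cells against 580, 677 and 697 CPM in Ccl5-negative cells (log2 fold change -0.97, SE 0.10, edgeR adjusted p = 1.2e-05). Lef1, a transcription factor gene of naive T cells, had 340, 205 and 261 CPM against 608, 439 and 576 CPM (-1.08, SE 0.08, edgeR adjusted p = 1.1e-06). Each library thus kept transcripts of both genes.

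Other genes of naive CD8 T cells fell further. Igfbp4 fell by 3.19 on the log2 scale (SE 0.26), Ccr9, the gut homing receptor gene, by 3.44 (SE 0.20), and Itgae, which encodes the CD103 integrin, by 2.91 (SE 0.17). Ccr9 had 3.22, 3.52 and 3.22 CPM in Ccl5+Gzmk- cells against 39.1, 42.7 and 29.7 CPM. With 7, 8 and 23 UMIs in Ccl5+Gzmk- cells, Ccr9 had enough to be tested mainly through Ccl5-negative cells. Its fall, and the naive list count that holds it, are thus a description. The 10 largest falls also held Ramp1 and Ramp3, which encode partners of the calcitonin receptor family, the channel gene Kcna2, and 1700062C10Rik, Syt6, Gpr83 and Slc6a19. All of these but Ramp1 had few or no UMIs in Ccl5+Gzmk- cells and were testable mainly through Ccl5-negative cells, so their falls are a description. Leaving out the aged-GA library moved the counts of this comparison to 308 higher and 145 lower genes, and DESeq2 called 306 and 203.

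**Figure D3:**
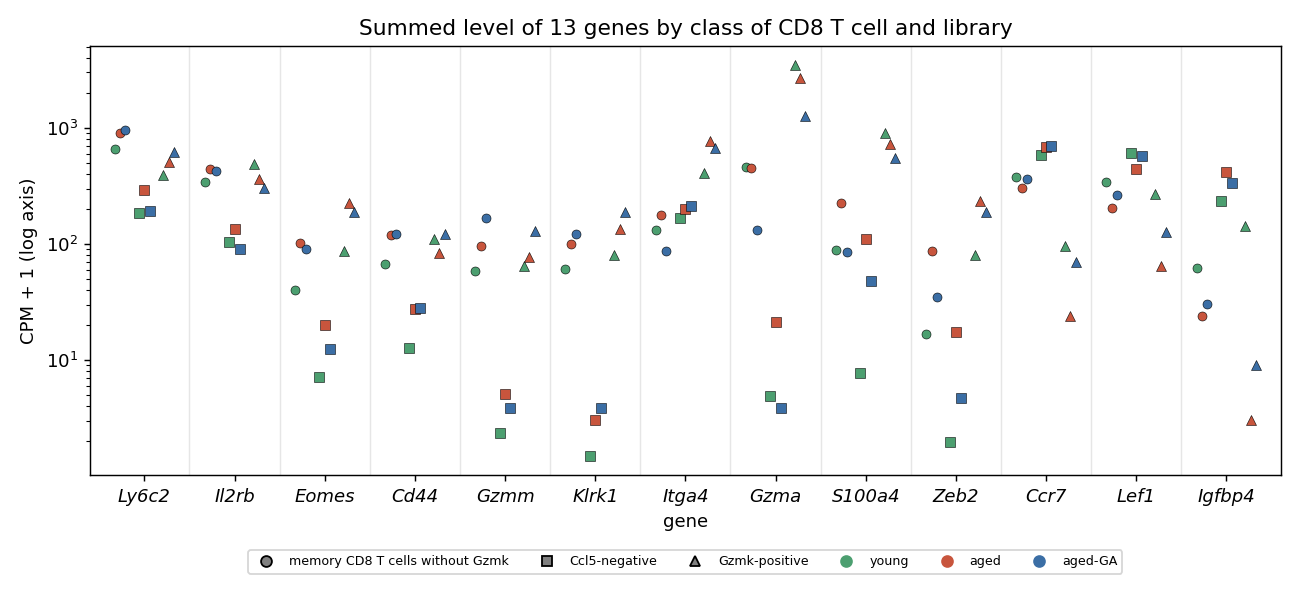
Level of 13 genes (CPM + 1, log axis, y) in UMIs summed per library over Ccl5+Gzmk- cells (circles), Ccl5-negative cells (squares) and Gzmk-positive cells (triangles), coloured by library; each point is 1 library. Ccl5+Gzmk- cells sit with Gzmk-positive cells for Il2rb, Cd44, Gzmm and Klrk1, below them for Itga4, Gzma, S100a4 and Zeb2, and above them for Ly6c2 and Ccr7.

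Compared with Gzmk-positive cells, Ccl5+Gzmk- cells had more transcripts of naive genes and fewer of S100 genes. Of 8088 genes, 540 were higher (6.68%) and 485 lower (6%), together 12.7%, in the same test, edgeR's adjusted p under 0.05 with the library as a block. Naive genes were higher in 14 of 16, with a median log2 fold change of 1.47 beside 0.01 over all genes. S100, galectin and annexin genes were lower in 10 of 13 (median -0.99), cell cycle genes in 13 of 16 (median -1.11), trafficking receptors in 9 of 18, cytotoxic genes in 6 of 13, with 3 higher (median -0.15), and inhibitory receptors and exhaustion genes in 6 of 10. Lag3, Pdcd1 and some cell cycle genes such as Cdk1 and Rrm2 had enough UMIs to be tested only through Gzmk-positive cells, so the counts of the lists that hold them are a description. The young Gzmk-positive class held 16 cells and 127025 UMIs, so it weighs little, and 862 of the 1025 genes called had 1 sign in every library.

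Ccr7 had 373, 299 and 364 CPM in Ccl5+Gzmk- cells against 94.5, 22.7 and 68.7 CPM in Gzmk-positive cells (log2 fold change 2.90, SE 0.17, edgeR adjusted p = 4.7e-12). Its levels did not overlap between the classes. Il7r and Bcl2, which did not separate the cells from Ccl5-negative ones, were higher by 1.42 (SE 0.11) and 1.34 (SE 0.10), and the interleukin 4 receptor gene Il4ra by 2.18 (SE 0.24). Ly6c2, a marker of the label, was higher by 0.99 (SE 0.09) and Il18r1 by 1.05 (SE 0.15). Over the memory list 5 of 18 genes were higher and 9 lower (median -0.30). The 10 largest rises held Ccr7 and genes with few or no UMIs in Gzmk-positive cells, which were testable only through Ccl5+Gzmk- cells. Of these Tdrp had 49.8, 66.9 and 79.0 CPM against 7.87, 0 and 8.02 CPM, and the others with a known role included Dusp16, a phosphatase gene, Yes1, a kinase gene, and St6gal1, a sialyltransferase gene.

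Some genes known from effector cells lay in between. Gzma, the granzyme A gene, had 463, 448 and 131 CPM in Ccl5+Gzmk- cells, 3448, 2666 and 1272 CPM in Gzmk-positive cells and 3.93, 20.3 and 2.84 CPM in Ccl5-negative cells. The step down from Gzmk-positive cells was -2.63 (SE 0.10, edgeR adjusted p = 1.1e-15). Zeb2 had 15.7, 86.3 and 33.7 CPM against 78.7, 235 and 187 CPM (-1.77, SE 0.16, edgeR adjusted p = 1.0e-08), and Cx3cr1, the fractalkine receptor gene, 12.0, 38.7 and 9.37 CPM against 142, 136 and 71.0 CPM (-2.26, SE 0.23, edgeR adjusted p = 6.1e-08). In each library these 3 genes were lowest in Ccl5-negative and highest in Gzmk-positive cells.

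Of the inhibitory receptor and exhaustion genes, 4 of 8 tested were higher and 2 lower than in Ccl5-negative cells. Lag3, an inhibitory receptor gene, had 3, 6 and 11 UMIs in Ccl5+Gzmk- cells (1.38, 2.64 and 1.54 CPM), and it was testable only through Gzmk-positive cells, with 23.6, 28.9 and 13.7 CPM. Tox, a transcription factor gene of exhausted cells, had 42.8, 31.7 and 29.2 CPM against 70.9, 165 and 150 CPM (-1.90, SE 0.19, edgeR adjusted p = 3.3e-08). Pdcd1, which encodes PD-1, had 2, 11 and 3 UMIs. Nt5e, which encodes the ectoenzyme CD73, went the other way, with 25.3, 64.2 and 62.4 CPM and a log2 fold change of 1.40 over Gzmk-positive cells (SE 0.24, edgeR adjusted p = 0.00013), a call that DESeq2 did not make (adjusted p = 0.062). The largest falls included Lmo1, a LIM domain gene, and Ret, a receptor kinase gene, which were at or near 0 in Ccl5+Gzmk- cells, and the cell cycle genes Hist1h1b, Cdk1, Rrm2 and Pclaf, which had few UMIs there. They were testable mainly through Gzmk-positive cells, so their falls are a description. Some memory and cytotoxic genes did not pass this test: Cd44 differed by 0.34 (SE 0.15, edgeR adjusted p = 0.16) and Fasl by -0.15 (SE 0.17, edgeR adjusted p = 0.68). Gzmm and Il2rb passed it, at 0.56 and 0.48, but not in DESeq2 (adjusted p = 0.33 and 0.18). Without the aged library the counts were 304 higher and 243 lower, without the aged-GA library 283 and 214, and DESeq2 called 232 and 189.

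How the naive and the effector genes met in single cells was read after thinning each cell to 2000 UMIs. A cell with a UMI of Ccr7 or Lef1 and none of Gzma, Gzmb, Cx3cr1, Zeb2, Klrg1 or S1pr5 was the most frequent kind. Such cells were 64.1%, 39.0% and 57.0% of the 273, 367 and 868 Ccl5+Gzmk- cells deep enough in young, aged and aged-GA mice. Cells with the effector genes alone were 7.69%, 22.3% and 7.37%, and cells with both 5.86%, 9.26% and 8.87%. The aged library had the largest effector share, and its aged-GA counterpart was close to the young one. Among cells with 15 or more UMIs of Ccl5 the naive genes stood alone in 50.4%, 34.7% and 53.2% of 133, 329 and 767 cells and the effector genes in 12.8%, 24.9% and 8.34%. Among Gzmk-positive cells the effector genes stood alone in 56.2%, 63.2% and 42.9%, and 86.9%, 85.0% and 88.8% of Ccl5-negative cells had the naive genes alone. The effector genes include ones that myeloid and natural killer cells also transcribe, and in B cells 1.37%, 2.43% and 1.93% had a UMI of Gzma at the same depth.

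**Figure D4:**
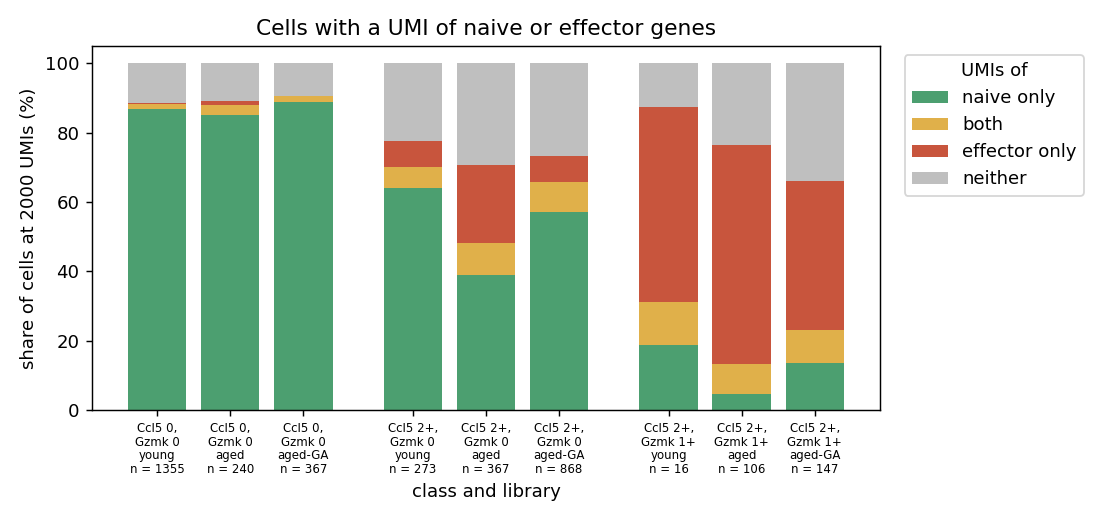
Share of cells (%, y axis) with at least 1 UMI of the naive genes Ccr7 and Lef1 only, of the effector genes Gzma, Gzmb, Cx3cr1, Zeb2, Klrg1 and S1pr5 only, of both or of neither, after thinning to 2000 UMIs, by class and library (x axis, with n cells). For naive only and effector only, the Ccl5+Gzmk- bars lie between the other classes: 64.1%, 39.0% and 57.0% naive only and 7.69%, 22.3% and 7.37% effector only in young, aged and aged-GA mice.

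Between young and aged mice, Ccl5+Gzmk- cells had higher levels of many memory and trafficking genes and of some S100 genes in the aged library. Levels were compared as log2 ratios of CPM with a pseudocount of 1 CPM, over 6350 genes with at least 50 UMIs in both libraries together, and a gene past 2-fold was counted. In aged mice 489 genes were higher (7.7%) and 53 lower (0.835%), together 8.54%, with a median log2 ratio of 0.31. Scaling by trimmed means (TMM) moved the ratios by -0.31 and the counts to 176 higher and 107 lower, so the excess of higher genes depended on the scaling. Among cells with 15 or more UMIs of Ccl5 the counts were 483 and 40.

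Of 18 memory genes, 10 were higher and none lower, with a median of 1.10. With TMM 6 were higher (median 0.79), and among cells with 15 or more UMIs of Ccl5 7 were (median 0.76). Eomes went from 38.7 CPM (30.9 to 47.9) in young to 99.9 CPM (87.3 to 114) in aged mice, a log2 ratio of 1.35 (1.00 to 1.75). Il18r1 went from 55.7 to 156 CPM (1.47, 1.18 to 1.79) and Itgb1, the integrin beta 1 gene, from 84.8 to 297 CPM (1.80, 1.57 to 2.05). These 3 genes kept ratios above 1 with TMM, at 1.04, 1.16 and 1.49, and among cells with more Ccl5, at 1.40, 1.32 and 1.31. Ly6a, which encodes Sca-1, had the largest ratio of the list, 2.15, or 3.10 among cells with more Ccl5. Cxcr3, Itgal and Itgb2 had 1.14, 1.22 and 1.06, or 0.83, 0.91 and 0.74 with TMM. In Ccl5-negative cells the ratio of Eomes was 1.48 and that of Ly6a 3.11, and whether the difference with age was larger in either class was not tested.

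Trafficking receptors were higher in 10 of 17 (median 1.06), in 5 with TMM and in 6 among cells with more Ccl5. This list shares Cxcr3, Itgb1, Itga4, Itgal and Itgb2 with the memory list. The higher genes Cxcr3, Itgb1, Itgal and Itgb2 were thus counted in both, and the 2 lists are not independent. S1pr5, a sphingosine receptor gene of effector and natural killer cells, had 10 UMIs in young and 84 in aged mice (4.61 and 37.0 CPM), a log2 ratio of 2.76 (2.05 to 4.12). Cx3cr1 had 12.0 and 38.7 CPM (1.61, 1.05 to 2.38), and Ccr2, an inflammatory chemokine receptor gene, 13.4 and 52.4 CPM (1.89). Itga1, which encodes the CD49a integrin of resident cells, had 9 and 61 UMIs (2.44, 1.68 to 3.89). These receptor genes kept the direction under TMM and among cells with more Ccl5, where Cx3cr1 was 0.98. In Ccl5-negative cells Ccr2 had 0.368 and 22.4 CPM in young and aged mice, a larger log2 ratio of 4.09. There S1pr5, Cx3cr1 and Itga1 were close to 0 in both libraries.

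Of 31 T cell transcription factor genes, 6 were higher and 1 lower (median 0.21). With TMM 3 were higher and 4 lower (median -0.10), and among cells with 15 or more UMIs of Ccl5 3 and 3, so the balance of this list turned with the scaling. Zeb2 went from 15.7 CPM (10.8 to 21.9) to 86.3 CPM (74.6 to 99.2), a log2 ratio of 2.39 (1.93 to 3.03). Id3, which is high in cells with memory potential, went from 119 CPM (105 to 134) to 21.1 CPM (15.6 to 28.0), a log2 ratio of -2.44 (-2.97 to -2.04), and in aged-GA over aged mice its ratio was -0.07. Zeb2 and Id3 moved in opposite directions, with ratios of 1.71 and -2.38 among cells with more Ccl5. In Ccl5-negative cells Id3 had 113 and 63.0 CPM, a log2 ratio of -0.83. Zeb2 was higher with age there too, at 0.982 and 16.3 CPM. Its log2 ratio of 3.12 was above that in Ccl5+Gzmk- cells but rests on only 8 and 24 UMIs. Of 13 S100, galectin and annexin genes 4 were higher, led by S100a6, a calcium-binding protein gene, from 206 to 1065 CPM (2.37, 2.23 to 2.52). S100a4 and Lgals3 were higher by 1.33 and 1.86, and by 1.65 and 3.50 among cells with more Ccl5. With doublets left out S100a4 was higher by 0.74 and Lgals3 by 1.08. In Ccl5-negative cells the ratios of S100a6, S100a4 and Lgals3 were larger, at 3.81, 3.82 and 3.61.

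Of the cytotoxic and the naive genes, 2 of each list passed 2-fold. Of 13 cytotoxic genes 2 were higher, Fasl by 1.50 (1.12 to 1.95) and the death ligand gene Tnfsf10 by 1.39, with a list median of 0.47. Gzma had 463 and 448 CPM in young and aged mice, a log2 ratio of -0.05. That ratio was -0.88 among cells with more Ccl5 and 0.58 without doublets, and 1 cell held 17.2% of the young UMIs, so no direction is given for it. Among cells with more Ccl5 no cytotoxic gene was higher and 1 was lower. Of 16 naive genes none was higher and 2 were lower, Dapl1 from 284 to 84.9 CPM (-1.73, -1.98 to -1.51) and Igfbp4 from 61.3 to 22.9 CPM (-1.38, -1.91 to -0.95). The naive list median was -0.25. With TMM 3 naive genes were lower (median -0.56), and among cells with more Ccl5 1 was higher and 2 were lower (median -0.07). Dapl1 had a ratio of -1.12 among those cells, and Igfbp4 had -0.94, under 2-fold, without doublets. Of 12 killer lectin-like receptor genes 4 were higher, Klrc2, Klra3, Klra7 and Klre1, by 1.06 to 1.36, and Klrb1c was lower by 1.20. With TMM 1 was higher and 1 lower, and among cells with more Ccl5 none was higher and 2 were lower, so these counts depended on the scaling and on how much Ccl5 a cell held.

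Several genes were lower in aged mice. Tnf, the tumour necrosis factor gene, had 51 UMIs in young and 7 in aged mice (23.5 and 3.08 CPM), a log2 ratio of -2.59 (-4.32 to -1.79), and too few among cells with more Ccl5 for a ratio. Ddit4, a gene induced by glucocorticoids and stress, had 41.9 and 8.36 CPM (-2.20, -3.12 to -1.60), and -1.90 in Ccl5-negative cells. Myb, a gene of memory and progenitor cells, had 58.5 and 12.8 CPM (-2.11). Dusp2, a phosphatase gene of activated lymphocytes, had 917, 449 and 563 CPM in young, aged and aged-GA mice. The 10 lowest ratios also held Ifngr2, an interferon gamma receptor gene, Atp1b1, a sodium pump gene, AY036118, Phlda1, and the neutrophil granule genes Ngp and Camp. All 152 young UMIs of Camp and 99.4% of those of Ngp came from 1 cell.

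The other lists are set beside the 7.7% of all genes that were higher and the 0.835% that were lower in aged mice. T cell receptor signaling genes were higher in 2 and lower in 1 of 29 (median 0.53), interferon-stimulated genes higher in 2 of 27 (0.36) and MHC class I genes in 2 of 17 (0.39), these being Nlrc5 (1.74) and H2-Q6 (1.01). None of 10 heat shock genes passed (-0.03), and of 20 immediate early genes 1 was higher and 1 lower (-0.11). Of 9 glucocorticoid-responsive genes only Ddit4 was lower and none higher (-0.29), or 2 lower with TMM. Of 8 cytokine and chemokine ligand genes 2 were higher, the chemokine gene Ccl4 (2.23) and Flt3l (1.15), and Tnf was lower (list median 0.57). Cytokine receptor genes were higher in 4 of 24 (0.19), costimulatory receptors in 1 of 10 (0.27), inhibitory receptors in 2 of 8 (0.49), and cell cycle genes in 1 of 12 (0.42). Of the CDK inhibitors that serve as marks of senescence, Cdkn2a had 1, 3 and 5 UMIs and Cdkn1a 17, 28 and 60 in young, aged and aged-GA mice. These fell below the limit of 50 UMIs between young and aged mice, and Cdkn1a had a log2 ratio of -0.50 in aged-GA over aged mice.

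Markers of myeloid cells moved with age in the same cells. Of 9 tested, 7 were higher in aged mice, or 4 with TMM, and the sum of the 13 listed was 661, 1614 and 2105 CPM in young, aged and aged-GA Ccl5+Gzmk- cells, with S100a9 at the top and none at 0 in every library. In Ccl5-negative cells the sum was 109, 1089 and 1151 CPM. Lyz2, the lysozyme gene, had 11.1, 344 and 108 CPM, with 91.7% of the young UMIs in 1 cell, and 0.366%, 19.6% and 7.26% of the thinned cells had a UMI of it, against 0.758%, 25.4% and 8.87% of B cells. That share was lower in Ccl5+Gzmk- cells than in B cells in each library. The 10 largest ratios in aged over young mice, of Retnlg, Cxcl2, Il1b, Wfdc17, Ifitm3, Lyz2, Ifitm2, Alox5ap, Apoe and Fn1, were mostly of genes known from monocytes and neutrophils, and the part of these transcripts in the counts above was not tested. Without cells with 2 or more UMIs of Lyz2, S100a8 and S100a9, a filter that kept all but 1 of the 274 cells in young mice but 209 of the 370 in aged and 633 of the 870 in aged-GA mice, the log2 ratio was 2.09 for Zeb2, 1.40 for Eomes and 2.18 for S100a6, while Lgals3 had 0.89 and S100a4 0.79.

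The other foreign markers were also summed. The 13 B cell markers had 173, 334 and 704 CPM, led by Ighm, and 5 of 6 tested were higher in aged mice. The 7 red cell markers had 827, 6821 and 4208 CPM, led by Hbb-bs, and the 8 platelet markers 0.461, 5.28 and 13.01 CPM, with Gp1bb and Tubb1 at 0. The 9 natural killer cell markers had 1033, 1258 and 848 CPM, against 289.7, 497 and 366 CPM in Ccl5-negative cells, led by Txk, which Ccl5-negative cells also carry, and their defining receptor gene Ncr1 had 25, 6 and 18 UMIs. In aged over young mice 3 of 7 natural killer cell markers tested were higher and 1 lower, or 1 and 1 with TMM. Of 8 natural killer cell markers tested, 3 were lower and 1 higher in aged-GA than in aged mice (median -0.85, or -0.74 with TMM), the lower ones being Gzma, Klra8 and S1pr5. The 9 gamma-delta T cell markers had 59.0, 41.8 and 35.7 CPM, led by Trdc, with Sox13 at 0, the 8 CD4 and regulatory T cell markers 53.9, 36.1 and 28.5 CPM, led by Ctla4, and the 5 basophil markers 0, 2.20 and 1.12 CPM. The part of these cells in the results was not tested.

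Between aged and aged-GA mice, few genes of Ccl5+Gzmk- cells passed 2-fold, and Gzma, Cx3cr1 and Zeb2 were among those lower in aged-GA mice. Of 8346 genes with at least 50 UMIs, 38 were higher (0.455%) and 60 lower (0.719%) past 2-fold, together 1.17%, with a median of -0.07. TMM scaling moved the ratios by 0.11 and the counts to 45 and 40. They were 55 and 40 without doublets and 57 and 44 without cells with myeloid RNA, so which direction held more genes depended on these choices.

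Gzma went from 448 CPM (421 to 476) in aged to 131 CPM (123 to 140) in aged-GA mice, and its log2 ratio was -1.76 (-1.90 to -1.64). Cx3cr1 went from 38.7 CPM (31.1 to 47.7) to 9.37 CPM (7.26 to 11.9), a log2 ratio of -1.94 (-2.53 to -1.57). Zeb2 went from 86.3 to 33.7 CPM (-1.33, -1.63 to -1.08). The aged-GA level of Cx3cr1 was near the young one of 12.0 CPM, while that of Gzma lay below the young 463 CPM and that of Zeb2 above the young 15.7 CPM. The share of thinned cells with a UMI showed the same order, with 13.4% and 5.18% for Gzma, 9.26% and 2.42% for Cx3cr1 and 17.2% and 5.99% for Zeb2 in aged and aged-GA mice.

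Gzmb, the granzyme B gene, had 89.8 and 37.5 CPM (-1.24, -1.53 to -0.99), Klrg1 14.1 and 4.76 CPM (-1.39, -2.31 to -0.82) and S1pr5 37.0 and 16.4 CPM (-1.13, -1.59 to -0.75). Klra8, a Ly49 receptor gene of natural killer cells, had 21.1 and 7.55 CPM (-1.37), and Klra4, of the same family, 5 and 50 UMIs (1.32, 0.35 to 3.35). S100a4 and Lgals3 were lower by 1.40 and 1.37. Itga4 had 176 and 86.7 CPM (-1.01, -1.20 to -0.84), or -0.91 with TMM. In Ccl5-negative cells the ratios were -1.18 for S100a4, -1.60 for Lgals3 and 0.09 for Itga4. Gzma had 30 and 7 UMIs there (20.3 and 2.84 CPM) and Zeb2 24 and 9 (16.3 and 3.66 CPM). Gzmb had 6 and 1 and Cx3cr1 3 and 0 UMIs, and all these counts are too few for a firm ratio. In Gzmk-positive cells these genes and Klrg1 were also lower in aged-GA than in aged mice. Gzma had 2666 and 1272 CPM in those cells, Gzmb 384 and 242, Cx3cr1 136 and 71.0, Klrg1 97.0 and 43.5 and Zeb2 235 and 187. Whether the ratios differed between the classes was not tested.

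The same genes were followed without the cells in doubt. With doublets left out, the log2 ratios in aged-GA over aged mice were -2.18 for Gzma, -1.98 for Cx3cr1, -1.20 for Zeb2 and -1.03 for S100a4, and without cells with myeloid RNA they were -1.32, -1.50, -0.94 and -1.12. Zeb2 was thus just under 2-fold in the latter, and Lgals3 was under it without doublets (-0.85) but not without myeloid RNA (-1.12). Fn1, Lyz2, Clec4a3, Wfdc17 and Sirpa, which monocytes transcribe, were also among the 10 lowest ratios, with Hist1h2ae and Gm21887. Of 12 myeloid markers tested, 2 were higher and 4 lower, S100a8 by 1.41 upward and Lyz2 by 1.66 downward.

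Other cytotoxic and memory genes did not pass 2-fold. Gzmm stood at 95.1 CPM (82.8 to 109) in the aged library and at 165 CPM (156 to 175) in the aged-GA library, a log2 ratio of 0.79 (0.59 to 1.01) that became 1.17, past 2-fold, without cells with myeloid RNA, and Cst7, a granule protease inhibitor gene, 62.9 and 101 CPM (0.68). Prf1 had 80.1 and 77.4 CPM and Klrk1 99.0 and 122 CPM. Eomes, Il2rb and Cd44 had log2 ratios of -0.15, -0.08 and 0.04, and Ly6c2 0.07.

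By list, aged-GA over aged, memory genes had 0 higher and 1 lower of 18 (median -0.23), S100, galectin and annexin genes 0 and 2 of 13 (-0.41), trafficking receptors 1 and 3 of 19 (-0.29) and transcription factors 0 and 1 of 33 (-0.11). Itga4 was counted as lower in both the memory and the trafficking list. Cytotoxic genes had 0 and 2 of 13 (median -0.18), killer lectin-like receptors 1 and 2 of 14 (-0.11) and naive genes 0 and 0 of 16 (0.23). None of 28 T cell receptor signaling genes passed 2-fold (-0.04), and none of 17 MHC class I genes, 27 cytokine receptor genes, 10 costimulatory receptors, 8 inhibitory receptors or 14 cell cycle genes. Isg15 was the only one of 33 interferon-stimulated genes to pass (-1.07), and with TMM it did not (-0.97). The 10 largest ratios were of the neutrophil genes Ngp, Camp, Ltf, Lcn2 and Wfdc21, the antigen presentation genes Cd74, H2-Ab1, H2-Aa and H2-Eb1, and Stk11ip. One cell gave 56.4% of the aged-GA UMIs of Ngp and 65.1% of those of Camp. Cd74, which B cells transcribe highly, had 14.3, 50.2 and 193 CPM in young, aged and aged-GA mice, and the part of B cell RNA in it was not tested.

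**Figure D5:**
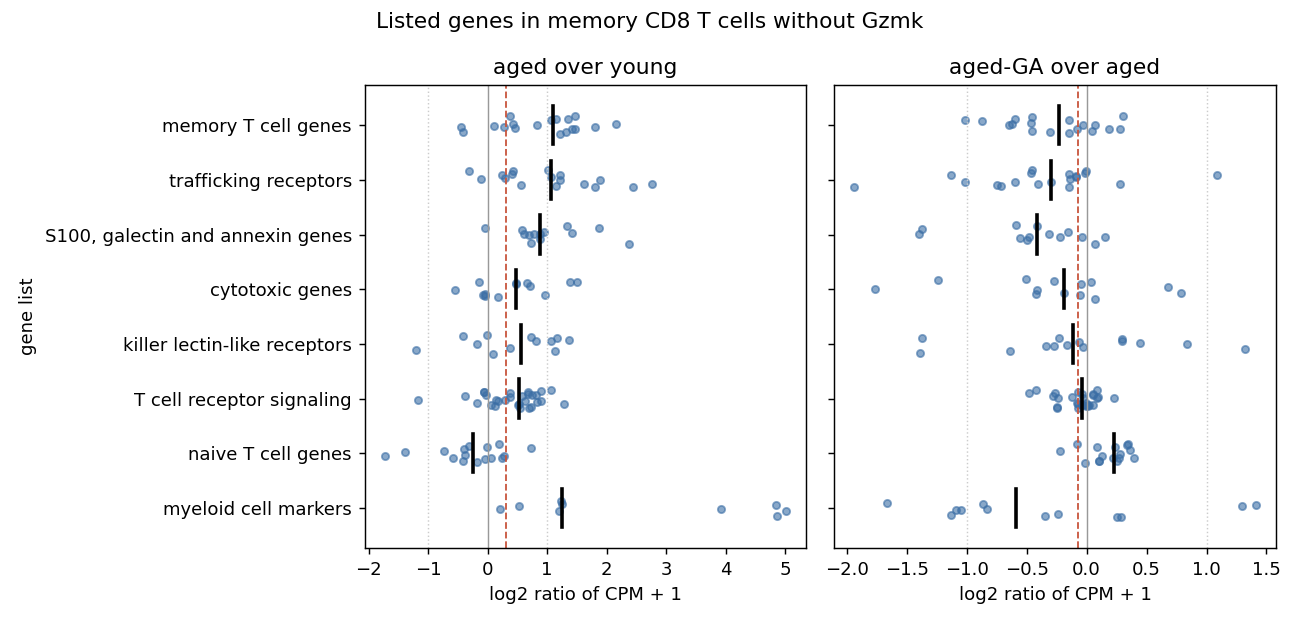
Log2 ratio of CPM + 1 (x axis) of each listed gene with at least 50 UMIs (points) in Ccl5+Gzmk- cells, aged over young (left) and aged-GA over aged (right), by list (y axis); black bars are list medians, the dashed line is the median of all genes (0.31 and -0.07) and dotted lines mark 2-fold. Memory genes and trafficking receptors, lists that share genes such as Cxcr3 and Itgb1, have medians of 1.10 and 1.06 on the left. Their medians on the right are -0.23 and -0.29, and myeloid markers spread widely on both sides.

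T cell receptor V segments were read in few cells, since the reads cover transcript ends. A beta chain V segment was seen in 64, 40 and 89 Ccl5+Gzmk- cells of young, aged and aged-GA mice (23.4%, 10.8% and 10.2%). Trbv12-2 was the most frequent in each library, in 14 of the 64 cells (21.9%, 12.5 to 34.0%), 12 of the 40 (16.6 to 46.5%) and 20 of the 89 (22.5%, 14.3 to 32.6%). The intervals overlapped among the libraries, and the young Ccl5-negative cells had it in 53 of 281 (18.9%). In aged Ccl5-negative cells the most frequent was Trbv13-1, in 4 of 34 (11.8%, 3.30 to 27.5%). Differences between classes or libraries in these few cells were not tested. The alpha chain segments were spread more widely, with 30, 28 and 42 segments seen, of which the most frequent took 8.96%, 13.3% and 14.7% of the cells with one.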

How the data were processed

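Single-cell RNA sequencing gave 1 library each of young, aged and aged-GA mice. The deposited matrices hold raw UMI counts per gene and barcode, which the authors made with Cell Ranger (5.0.0 in the matrix header) on mm10, and nothing was normalised before deposit. Cells and gene lists were chosen with earlier results of these data known, and a listed gene is not reported here and was left out of its lists. The cell choice and filters are given above. The limit of 15 UMIs of Ccl5 and the doublet limit were set after the data were seen. Doublets were scored with Scrublet through scanpy 1.11.5 (Python 3.11.15) and kept, except in 1 alternative at a score limit of 0.2, because the automatic limit marked 0.0922% in aged-GA mice (at 0.2, 4.68%, 4.32% and 4.94% of barcodes in young, aged and aged-GA mice). Conditions were compared without a test. Classes were compared on UMIs summed per library by edgeR 4.0.16 (R 4.3.3, TMM, quasi-likelihood, library as block, Benjamini-Hochberg), with DESeq2 1.42.0 as an alternative. The block pairs both classes of the same library. On simulated counts, edgeR recovered 81.1% of 2-fold and 100% of 4-fold changes against Ccl5-negative cells (8597 genes) and 51.5% and 96.8% against Gzmk-positive cells (7975 genes). The simulation gave all libraries the same gene means and an assumed spread, and changed only genes with at least 100 UMIs. The real libraries differ, so these rates are not the power of the real test. Named genes were those of the choice and the label, listed genes past 2-fold or most abundant, and the 10 largest in each direction, without haemoglobin, mitochondrial, ribosomal, immunoglobulin and receptor segment genes. Other listed genes named with their counts were chosen after their values were seen. Summed UMIs of Ccl5+Gzmk- cells were 2170757, 2272403 and 7148828, so aged-GA values have the narrowest intervals. Chromosome positions of genes came from GENCODE on GRCm38, and promoters from RefSeq.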

Additional observations from a re-analysis of the deposited data

Results flagged for a closer look

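Among genes with at least 50 UMIs in each class, 2 passed 2-fold between aged and young mice in opposite directions in Ccl5+Gzmk- and Ccl5-negative cells, and this difference was not tested. Trdc, the constant segment of the delta chain, had 30.9, 7.04 and 7.69 CPM in young, aged and aged-GA Ccl5+Gzmk- cells, a log2 ratio of -1.99 in aged over young mice, and 1.78 in Ccl5-negative cells. Mt1, a metallothionein gene, had 20.3, 7.04 and 1.40 CPM, a log2 ratio of -1.40, and 1.84 in Ccl5-negative cells.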

How the results depend on the processing

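The share of CD8 T cells kept its direction in every alternative run, but sizes, and the balance of higher and lower genes, depended on the choices. The log2 ratio of the share of CD8 T cells, aged over young, was 1.59 and became 1.33 with at least 1 UMI of Ccl5, 1.84 with 4, 2.46 with 15 and 2.20 with the choice made on thinned cells; over all barcodes that passed it was 0.30. For aged-GA over aged it was 0.26, and 0.99 over all barcodes. Of the genes past 2-fold, aged over young (489 higher and 53 lower), the higher and lower counts were 251 and 24 on thinned cells, 132 and 31 with a pseudocount of 10 CPM, 1547 and 369 with no minimum of UMIs, 112 and 18 with at least 200, 176 and 107 with TMM, 172 and 110 with DESeq2 size factors and 251 and 81 without ribosomal, mitochondrial and haemoglobin genes in the total, and 31 were lower with the choice made on thinned cells. For aged-GA over aged (38 and 60) they were 24 and 39 on thinned cells, 11 and 10 with a pseudocount of 10 CPM, 208 and 266 with no minimum and 13 and 13 with at least 200 UMIs, and the balance turned to 45 and 40 with TMM, 43 and 42 with DESeq2 size factors, 57 and 49 without ribosomal, mitochondrial and haemoglobin genes, 55 and 40 without doublets and 57 and 44 without myeloid RNA. Among cells with 15 or more UMIs of Ccl5 they were 34 and 60.

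Against Ccl5-negative cells (618 and 493), counts were 324 and 217 on thinned cells, 306 and 203 by DESeq2, and 308 to 837 and 145 to 695 when 1 library was left out. Against Gzmk-positive cells (540 and 485) they were 249 and 159 on thinned cells, 241 and 131 with the choice made on thinned cells, 232 and 189 by DESeq2, and 283 to 532 and 214 to 518 with 1 library left out. The lower count was 317 with up to 1 UMI of Gzmk allowed and 310 without cells with myeloid RNA. Without the library as a block, which pairs the classes, 257 and 110 genes were called against Ccl5-negative and 154 and 162 against Gzmk-positive cells, where the balance turned. The comparisons between conditions have the limit that 1 library per group leaves no replicate error, and levels near that of a few UMIs carry wide intervals.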
